A study of Mus musculus with 19 samples.

Results

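The genes described here are 34 genes of glycolysis, fructose use and the pentose phosphate pathway, chosen by their known function in sugar uptake and breakdown: 3 sugar transporters, 3 hexokinases with the regulatory protein Gckr, the enzymes of glycolysis with 4 enzymes that set fructose 2,6-bisphosphate, 2 lactate dehydrogenases, 2 fructose enzymes and 4 pentose phosphate enzymes. They are 34 of the 26506 genes in the deposited table, and all 34 were found there by their Ensembl identifiers. Glucose enters the cell through transporters, is trapped as glucose 6-phosphate by hexokinases and is split and oxidised by glycolysis to pyruvate, which lactate dehydrogenase interconverts with lactate. Fructose joins the same route through ketohexokinase, and the pentose phosphate pathway branches off glucose 6-phosphate to make NADPH and ribose. Liver and kidney cortex can also run most of these steps in reverse to release glucose, and many steps are catalysed by tissue-specific isoforms of one enzyme.

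Poly(A)-selected RNA of kidneys and livers, each homogenised as a whole organ and taken from male mice, was sequenced. The wild-type mice and the homozygous knockouts came from matings of heterozygotes, on a C57BL/6J background reached by at least 10 generations of backcrossing. The knockout allele lacks the alternative exon of H2afy that makes the macroH2A1.1 form of the histone variant macroH2A1. It had been made by treating zygotes that carried the floxed exon with soluble Cre, so the deletion is carried in the germline and not limited to a cell type. Groups were 5 knockout kidneys, 5 wild-type kidneys, 5 knockout livers and 4 wild-type livers; the liver numbered 23 was not analysed here. The housing text names a standard and a ketogenic diet, and neither the diet of each mouse nor its age is stated. The labels number the mice without saying that each library is a separate animal, and the p-values reflect only how much these libraries vary.

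Total counts ran from 25919138 to 35131720 per kidney library and from 26084473 to 34806035 per liver library. Hepatocyte markers summed to at least 131100 CPM (counts scaled to the size of the library, with TMM factors from edgeR) in every liver and at most 1143 in any kidney, and proximal tubule S1 and S2 markers to at least 5551 CPM in every kidney and at most 2.99 in any liver. H2afy itself had values of 36.5 to 44.6 CPM in the knockout kidneys against 62.6 to 68.5 in 4 wild types, and 59.0 to 71.7 CPM in the knockout livers against 101.6 to 120.9 in 3 wild types. The libraries labelled wild type 24 had 49.4 CPM in kidney and 72.5 CPM in liver, beside the knockouts. With them included, the H2afy difference did not pass the threshold (log2 -0.58, edgeR adjusted p = 0.135 in kidney, and -0.61, adjusted p = 0.384 in liver). Without them it was under the threshold in both tissues (log2 -0.65, edgeR adjusted p = 0.00679 in kidney, and -0.74, adjusted p = 0.0469 in liver). The libraries numbered 24 were singled out by their low H2afy values, so leaving them out enlarges this difference by construction. The p-values without them are therefore no test of the H2afy difference. A sum of reads over the whole gene is a weak check of an allele that removes 1 exon. The knockout differences of the members with the smallest p are given with and without these libraries.

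Levels between genes were compared only as CPM per kilobase of exon. In wild-type kidney Ldhb, the heart-type lactate dehydrogenase subunit, was the highest of the 34 genes at 598 ± 43.5 CPM per kilobase (SD, n = 5), and its libraries did not overlap with those of the next gene, Gapdh, at 360 ± 21.2. Khk, the ketohexokinase that phosphorylates fructose, followed at 296 ± 42.2 and Aldoa, the muscle-type aldolase, at 267 ± 13.1 CPM per kilobase, and the libraries of these 2 overlapped. In wild-type liver the order was headed by Khk at 416 ± 58.2 (SD, n = 4), Ldha, the muscle-type lactate dehydrogenase subunit, at 393 ± 38.8, and Gapdh at 389 ± 19.5 CPM per kilobase, whose libraries overlapped. Ldhb held rank 24 in liver, with 2.48 ± 0.652 CPM per kilobase. The lowest gene was Gckr in kidney, at 0.0296 ± 0.0150, and Hkdc1, a hexokinase-like protein, in liver, at 0.0438 ± 0.0361 CPM per kilobase. Of the 33 neighbours in this order, 22 in wild-type kidney and 23 in wild-type liver had overlapping libraries, so only the coarse order is set by these data.

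**Figure D1:**
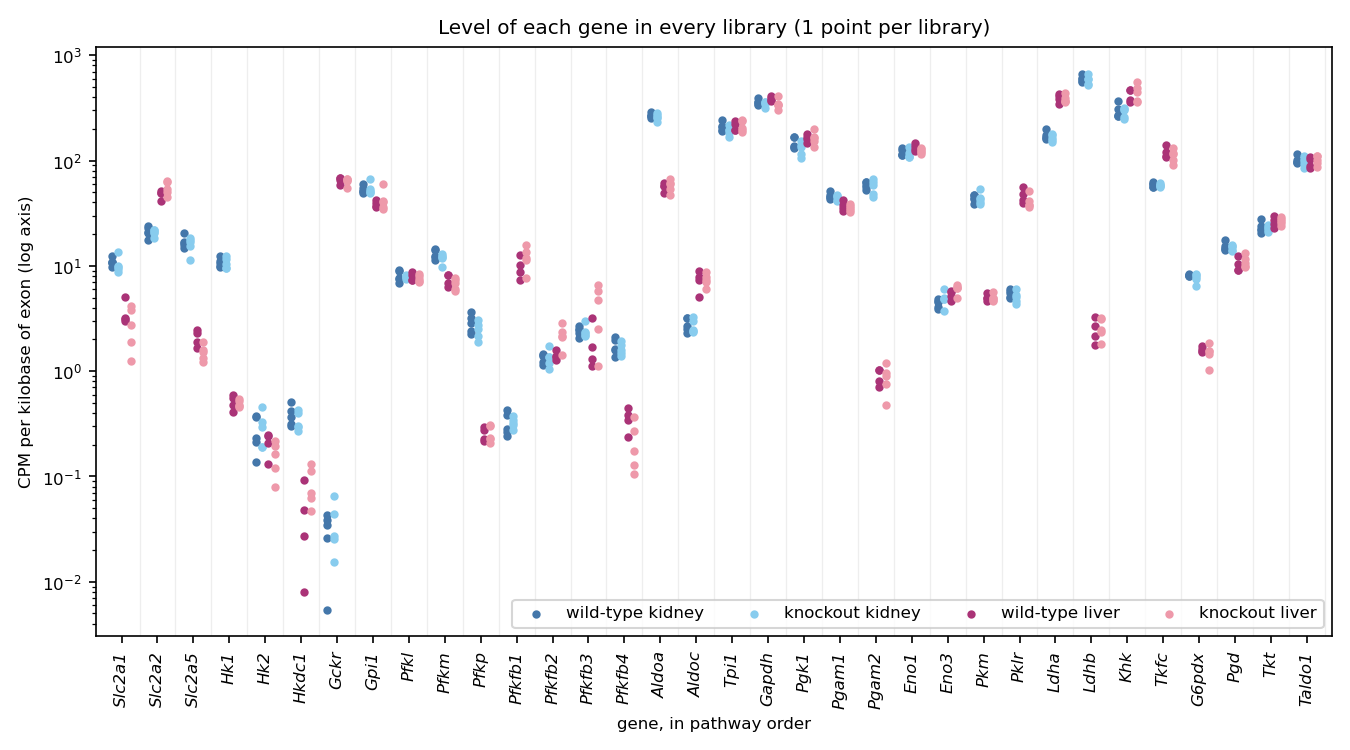
Level of each of the 34 genes in every library, in CPM per kilobase of exon on a log axis, with genes in pathway order and 1 point per library in 4 groups. Kidney and liver stand apart for Ldhb, Pgam2, Hk1 and Gckr, while wild-type and knockout points of a tissue overlap for every gene.

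The first comparison asked which isoform of each step each tissue used, as wild-type liver against wild-type kidney, and again in the knockouts, whose libraries the wild-type comparison does not use. The 2 tissues differed in the levels of many of these genes: Gckr, Pfkfb1, Pklr, Aldoc, Ldha and Slc2a2 were higher in liver, and Ldhb, Pgam2, Hk1, Pfkp, Pkm, Slc2a5, G6pdx and Aldoa in kidney, in both genotypes and on either scaling. In wild types 25 of 34 members passed an edgeR adjusted p of 0.05, 10 higher and 15 lower in liver, where 75.4% of all 17428 genes tested passed, 33.9% higher and 41.6% lower. In knockouts 27 of 34 passed, 12 higher and 15 lower, against 73.8% of 16823 genes, 33.9% higher and 39.8% lower. The median difference over the members was -0.15 on the log2 scale in wild types and 0.03 in knockouts, beside -0.14 and -0.10 over all genes. The share of members that differed was near that of all genes. Without the library labelled wild type 24, 9 members passed as higher and 15 as lower in wild-type liver. In whole tissue, fewer cells of a type and less RNA per cell cannot be told apart. With library totals in place of TMM the median of all genes moved to -1.02 in wild types and -1.03 in knockouts, and the calls among members to 6 higher and 27 lower in wild types and 6 higher and 24 lower in knockouts. Over all genes the calls on library totals were 2344 higher and 12527 lower in wild types and 2189 higher and 11928 lower in knockouts. Of the 25 members called in wild types, 22 kept their direction and Eno1, Eno3 and Khk turned, to -0.68, -0.57 and -0.35. Of the 27 called in knockouts, 22 kept it, and Pfkfb2, Pgk1, Eno3, Khk and Tkt turned, to -0.18, -0.55, -0.58, -0.27 and -0.66. Shares within a family, given further on, do not depend on this scaling.

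**Figure D2:**
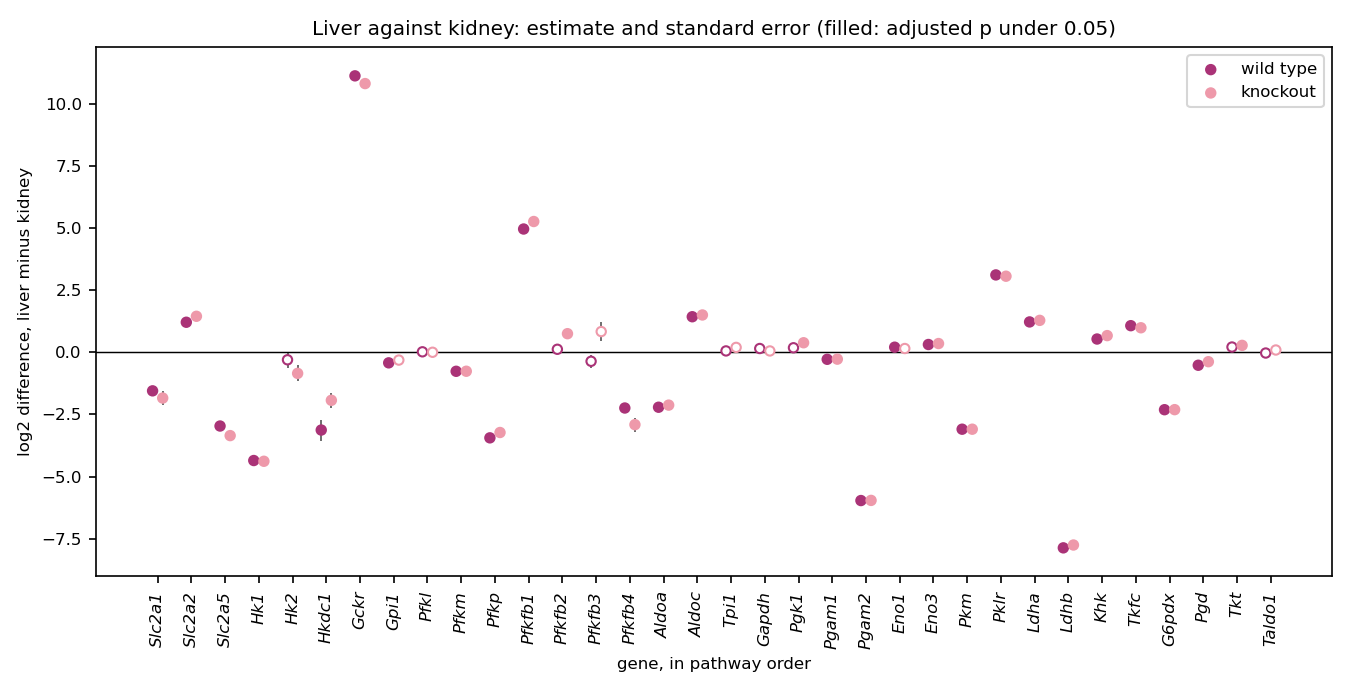
Log2 difference of liver minus kidney for the 34 genes, as estimate and standard error, in wild type and in knockout; filled points passed an adjusted p of 0.05. Differences reach from 11.13 for Gckr to -7.87 for Ldhb in wild types, and from 10.82 to -7.75 for the same genes in knockouts; on library totals Eno1, Eno3 and Khk turn direction in wild types, and Pfkfb2, Pgk1, Eno3, Khk and Tkt in knockouts.

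Promoters are shown for 5 members, because these are genes whose levels set the kidney and the liver apart at the regulation of glucose phosphorylation, pyruvate kinase, phosphoglycerate mutase and lactate dehydrogenase. RefSeq promoters on GRCm38.p6, from 250 bases before to 50 after a start site, were matched for all 34 members, with 53 start sites. Capitals mark every match on either strand to 6 motifs: CACGTG (an E-box, which carries the sites of MYC and USF), CACGGG (the arm of a carbohydrate response element), TATAAA (the TATA box), CCAAT (bound by NF-Y), GTTAAT (an arm of the HNF1 site) and GGGCGG (the GC box of Sp1). No motif contains another.
Pklr promoter, chr3:89136373-89136672, strand +: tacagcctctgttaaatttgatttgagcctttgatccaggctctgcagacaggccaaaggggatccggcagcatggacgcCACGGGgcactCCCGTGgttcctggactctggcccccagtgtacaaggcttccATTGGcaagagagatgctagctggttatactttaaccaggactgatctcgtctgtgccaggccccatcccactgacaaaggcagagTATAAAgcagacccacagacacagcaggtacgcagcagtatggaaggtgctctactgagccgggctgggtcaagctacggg
Gckr promoter, chr5:31297313-31297612, strand +: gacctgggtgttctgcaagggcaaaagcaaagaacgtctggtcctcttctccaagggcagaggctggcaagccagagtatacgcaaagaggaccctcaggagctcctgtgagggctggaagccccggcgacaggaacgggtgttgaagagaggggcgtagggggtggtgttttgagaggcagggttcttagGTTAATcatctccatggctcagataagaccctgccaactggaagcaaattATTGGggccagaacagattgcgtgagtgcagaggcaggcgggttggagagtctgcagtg
Ldha promoter, chr7:46845554-46845853, strand +: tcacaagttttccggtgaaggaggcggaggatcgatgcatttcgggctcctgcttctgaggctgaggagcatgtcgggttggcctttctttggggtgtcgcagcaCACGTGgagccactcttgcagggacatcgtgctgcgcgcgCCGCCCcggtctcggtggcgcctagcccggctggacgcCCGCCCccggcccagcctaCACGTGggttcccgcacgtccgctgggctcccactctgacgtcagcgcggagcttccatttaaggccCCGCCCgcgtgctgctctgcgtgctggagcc
Ldhb promoter, chr6:142507908-142508207, strand -: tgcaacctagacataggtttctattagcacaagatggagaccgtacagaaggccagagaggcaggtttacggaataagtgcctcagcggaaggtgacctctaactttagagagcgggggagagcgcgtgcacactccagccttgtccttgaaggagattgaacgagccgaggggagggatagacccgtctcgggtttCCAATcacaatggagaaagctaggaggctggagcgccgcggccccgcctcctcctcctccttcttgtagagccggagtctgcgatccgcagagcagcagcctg
Pgam2 promoter, chr11:5803747-5804046, strand -: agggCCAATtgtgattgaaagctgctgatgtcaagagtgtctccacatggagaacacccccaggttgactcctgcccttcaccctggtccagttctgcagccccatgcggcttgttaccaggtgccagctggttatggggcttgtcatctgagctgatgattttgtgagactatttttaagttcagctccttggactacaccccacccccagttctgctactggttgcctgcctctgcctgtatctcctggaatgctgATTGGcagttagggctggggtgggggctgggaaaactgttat
The Pklr stretch, at the downstream of 2 start sites, holds CACGGG once on each strand, at -170 and -159 from the start, and TATAAA at -31. Gckr holds GTTAAT at -59, and Ldha holds CACGTG at -145 and at -48 with 3 GC boxes. Ldhb and Pgam2, the genes with the largest excess in kidney, hold only CCAAT among the 6 motifs, 1 and 2 times. Over all 32851 promoters, CACGTG was found in 7.15%, CACGGG in 10.1%, TATAAA in 13.6%, CCAAT in 37.4%, GTTAAT in 7.10% and GGGCGG in 35.7%. Of the members' 53 start sites, 9.43% held CACGTG, 17.0% CACGGG, 5.66% TATAAA, 43.4% CCAAT, 5.66% GTTAAT (in Gckr, Khk and Pfkfb1) and 50.9% GGGCGG. The ratio of observed to expected CpG was 0.05 in the Pgam2 promoter, 0.36 in Gckr, 0.34 in Pklr, 0.70 in Ldhb and 0.88 in Ldha. A match is a description of letters and not of binding.

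Among the transporters, Slc2a2, the GLUT2 of hepatocytes and proximal tubule, was higher in liver by 1.21 ± 0.10 (SE) on the log2 scale (edgeR adjusted p = 2.68e-08), while Slc2a1, the widespread GLUT1, had a log2 difference of -1.55 ± 0.15 and Slc2a5, the fructose transporter GLUT5, one of -2.96 ± 0.13, both passing. By CPM per kilobase Slc2a2 made up 43.2% ± 2.98 (SD, n = 5) of the 3 in wild-type kidney and 89.3% ± 1.24 (n = 4) in liver. Slc2a5 made up 34.3% ± 2.12 in kidney and 3.90% ± 0.475 in liver.

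The hexokinase step differed most in its regulator. Gckr, a regulatory protein of glucose phosphorylation in hepatocytes, had 296, 283, 296 and 256 CPM in the wild-type livers numbered 19, 20, 22 and 24. In the wild-type kidneys numbered 19, 20, 22, 23 and 24 it had 0.0236, 0.151, 0.187, 0.112 and 0.169 CPM, from 1 to 7 reads a library. The libraries did not overlap, and the log2 difference was 11.13 ± 0.19 (edgeR adjusted p = 8.6e-16); in knockouts it was 10.82 ± 0.23. Hk1, the hexokinase of most tissues, went the other way.
Its level was 94.0, 84.4, 90.1, 83.3 and 105 CPM in the wild-type kidneys and 4.79, 4.11, 3.46 and 5.03 in the livers, a log2 difference of -4.35 ± 0.13 (adjusted p = 2.04e-13 with edgeR). The knockouts gave 80.7 to 106 CPM in kidney and 3.86 to 4.61 in liver. Hkdc1, encoded beside Hk1 on chromosome 10, was low in both tissues, with 2.15, 1.55, 1.63, 1.90 and 2.64 CPM in kidney and 0.248, 0.138, 0.0412 and 0.472 in liver. Its liver values rest on 1 to 9 reads, and the log2 difference was -3.13 ± 0.42. Hk2, the inducible hexokinase of muscle and fat, had 35 to 103 reads in wild-type kidneys and 15 to 35 in livers and did not pass in wild types (-0.30, edgeR adjusted p = 0.407). Within the 3 genes Hk1 made up 94.3% ± 0.973 in wild-type kidney and 66.7% ± 4.82 in liver.

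At the phosphofructokinase step the lead was divided. Pfkp, the platelet-type subunit, had 32.6, 30.2, 38.0, 42.6 and 48.6 CPM in wild-type kidneys and 3.72, 3.04, 3.96 and 2.94 in livers, with no overlap and a log2 difference of -3.44 ± 0.17 (edgeR adjusted p = 7.14e-11). Pfkm, the muscle-type subunit, was lower in liver by a smaller margin, with 14.2, 12.4, 12.2, 11.3 and 14.6 CPM per kilobase in kidney and 8.18, 6.92, 6.32 and 8.18 in liver (-0.76 ± 0.10). Pfkl, the liver-type subunit, had 9.18, 7.74, 6.94, 7.50 and 8.89 CPM per kilobase in kidney and 8.76, 8.28, 7.30 and 7.39 in liver, and did not pass (0.02, edgeR adjusted p = 0.84). Pfkm therefore led in kidney with 54.2% ± 1.70, and in liver Pfkl with 51.0% ± 2.99 and Pfkm with 47.4% ± 3.15 were within each other's spread. Without division by length Pfkl led in both tissues, with 39.7% in kidney and 65.3% in liver.

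The 4 PFKFB enzymes make and remove fructose 2,6-bisphosphate, the activator of phosphofructokinase. Pfkfb1, the liver-type enzyme that hormones switch by phosphorylation, had 1.06, 1.55, 1.71, 1.14 and 0.983 CPM in wild-type kidney and 29.5, 40.8, 51.3 and 35.2 CPM in wild-type liver (log2 4.97 ± 0.20, edgeR adjusted p = 1.55e-11). Its libraries did not overlap between tissues. Pfkfb4, the testis-type enzyme, had a log2 difference of -2.24 ± 0.20 (adjusted p = 1.05e-07 with edgeR). Pfkfb2, the heart-type, and Pfkfb3, the inducible enzyme with high kinase activity, did not pass in wild types (0.12 and -0.36). In the family Pfkfb3 led in kidney with 41.8% ± 1.97 and Pfkfb1 in liver with 72.6% ± 7.77. Pfkfb3 had 2.08, 2.31, 2.68, 2.54 and 2.46 CPM per kilobase in the wild-type kidneys and 1.69, 1.11, 1.30 and 3.23 in the livers, where number 24 was the high one.

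Of the steps in the middle of glycolysis that have 1 gene in the list, 3 did not pass between wild-type tissues. Tpi1, triose phosphate isomerase, Gapdh, the dehydrogenase often used as a reference gene, and Pgk1, phosphoglycerate kinase, had log2 differences of 0.06, 0.16 and 0.19 in wild types. Gpi1, the isomerase of glucose 6-phosphate, had -0.42 ± 0.09 in wild types (edgeR adjusted p = 0.000408). In the knockouts Gpi1 did not pass and Pgk1 did. Aldolase had the same leading form in both tissues: Aldoa, lower in liver by 4.62-fold, made up 99.0% ± 0.170 of the pair in kidney and 88.6% ± 1.49 in liver, and Aldoc, the brain-type form, was higher in liver by 2.70-fold. So did enolase, with Eno1 at 96.4% ± 0.527 in kidney and 96.2% ± 0.580 in liver over the muscle form Eno3.

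Phosphoglycerate mutase differed in its leading form per kilobase. Pgam2, the muscle-type enzyme, had 56.7, 61.9, 52.6, 62.2 and 59.0 CPM per kilobase in wild-type kidneys and 1.03, 0.714, 1.03 and 0.811 in livers, with no overlap. Pgam1, the widespread form, had 46.8, 45.2, 43.1, 45.3 and 50.9 CPM per kilobase in kidneys and 32.8, 37.6, 42.5 and 35.1 in livers. The log2 difference of Pgam2 was -5.96 ± 0.13 (edgeR adjusted p = 1.08e-14) and that of Pgam1 -0.28 ± 0.09. Pgam2 thus made up 55.8% ± 1.89 of the pair in wild-type kidney and 2.39% ± 0.493 in liver, though without division by length Pgam1 led in kidney too, with 65.1%. The 9 skeletal muscle markers in the table summed to at most 4.13 CPM in wild-type kidneys, where the Pgam2 level was 44.2 to 52.2 CPM.

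Pyruvate kinase and lactate dehydrogenase differed in leading form between tissues under each length scaling tried. Pkm, which makes the M1 and M2 kinases, had 47.5, 43.3, 39.0, 43.6 and 47.2 CPM per kilobase in wild-type kidneys and 5.52, 4.92, 4.96 and 4.66 in livers. Pklr, the liver and red cell kinase, had 5.77, 5.11, 5.58, 5.003 and 6.02 in kidneys and 41.9, 39.7, 55.7 and 47.6 CPM per kilobase in livers. Every kidney was above every liver for Pkm and below it for Pklr, with log2 differences of -3.09 ± 0.09 and 3.12 ± 0.11 (edgeR adjusted p = 2.89e-13 and 1.51e-12). Pkm made up 88.9% ± 0.873 of the pair in kidney and Pklr 90.1% ± 1.66 in liver. The exons of Pklr share 22.0% of their bases with the gene Hcn3 on the opposite strand, and the strand setting of the counting is not stated. Pkm shares 15.3% with the unclassified gene model Gm49759 on its own strand.

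Ldhb had 667, 589, 575, 552 and 608 CPM per kilobase in wild-type kidneys and 2.68, 3.29, 1.78 and 2.17 in livers, and Ldha 198, 167, 160, 165 and 176 in kidneys and 388, 341, 432 and 409 CPM per kilobase in livers. No library of one tissue reached into the other for either gene. The log2 differences were -7.87 ± 0.18 for Ldhb (edgeR adjusted p = 1.32e-14), 234-fold between tissues, and 1.23 ± 0.10 for Ldha. Ldhb, whose tetramer is known to favour the oxidation of lactate, made up 77.6% ± 0.505 of the pair in wild-type kidney, and Ldha, whose tetramer favours its formation, 99.4% ± 0.236 in liver. The Ldhb share ran from 77.0% to 78.2% across the 5 wild-type kidneys.

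**Figure D3:**
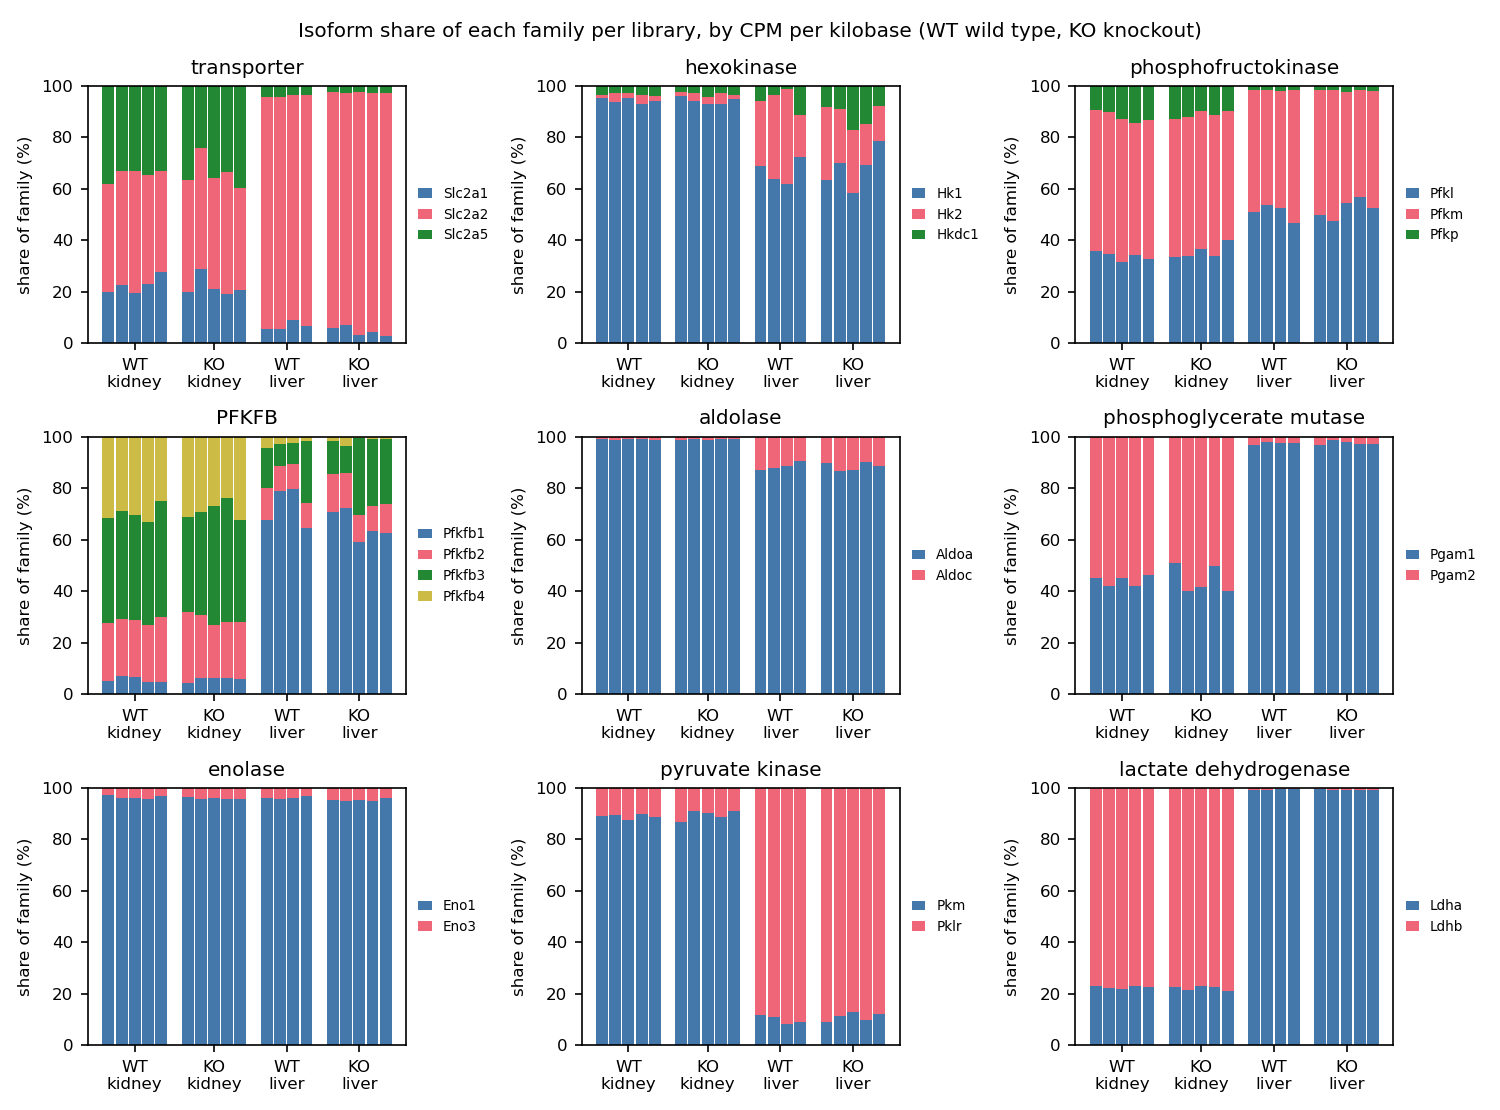
Share of each isoform within 9 families, in percent of the family's CPM per kilobase, as 1 stacked bar per library in wild-type (WT) and knockout (KO) kidney and liver. The leading form differs between tissues for lactate dehydrogenase, pyruvate kinase and PFKFB, and for phosphoglycerate mutase only with division by length. None of the 18 shares compared between genotypes passed the test. No share could pass on its own, even at the smallest possible p.

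Of the fructose enzymes, Khk was higher in liver by 0.54 ± 0.12 on the log2 scale (edgeR adjusted p = 0.000781), a direction that turned with library totals, and Tkfc, the triokinase that phosphorylates glyceraldehyde from fructose, by 1.07 ± 0.09 (adjusted p = 5.54e-08), which was 0.19 with an edgeR adjusted p of 0.0684 on library totals. In the pentose phosphate pathway the tissues differed at the entry: G6pdx, the dehydrogenase that commits glucose 6-phosphate, had a log2 difference of -2.31 ± 0.10 (adjusted p = 1.32e-11 with edgeR), with 25.2, 24.6, 25.3, 24.6 and 25.9 CPM in wild-type kidneys and 4.67, 5.30, 4.94 and 4.77 in livers. Pgd, the next dehydrogenase, had -0.52 ± 0.10. Tkt and Taldo1, which shuffle the sugar phosphates back to glycolysis, had differences of 0.22 and -0.03 that did not pass in wild types. Tkt passed in knockouts. G6pdx shares 13.6% of its exon bases with Ikbkg on the opposite strand, a gene with 33809 counts in all libraries against 10711 for G6pdx.

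The second comparison asked whether loss of macroH2A1.1 altered these genes in kidney, in a series whose title names kidney abnormalities and nutrient metabolism. None of the 33 members tested passed the edgeR threshold, and 0 had an unadjusted p under 0.05, where 509 of 17269 genes (2.95%) did; Gckr had too few reads. Over all genes 0.00579% passed, which is 1 gene, Unc5a, named here after its value was seen. The members' median log2 difference was -0.03 beside 0.01 for all genes, and values lay between -0.20 and 0.17. The 95% intervals of 31 of the 33 lay inside a 1.5-fold difference either way, with Hk2 and Hkdc1 as exceptions, and those of all 33 inside 2-fold.

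Of the 33, 25 had a lower value in knockout kidney, beside 8252 of all 17269 genes tested. The members' count was 18 with library totals and ran from 19 to 27 as 1 library at a time was left out. The 3 smallest p-values were those of Pgk1, Tpi1 and Pfkp. Pgk1 had 344, 257, 315, 301 and 238 CPM in the knockouts numbered 13, 14, 15, 16 and 18, and 376, 312, 300, 298 and 377 in the wild types numbered 19, 20, 22, 23 and 24 (log2 -0.18 ± 0.11, edgeR adjusted p = 0.999). The wild types 19 and 24 were high, knockouts 14 and 18 low, and the other libraries overlapped. Without wild type 24 the Pgk1 difference was -0.13.
Tpi1 had 503, 531, 604, 538 and 458 CPM in the knockouts and 674, 591, 541, 524 and 574 in the wild types (-0.13 ± 0.09). Pfkp had 41.2, 36.5, 29.0, 33.6 and 25.5 CPM in the knockouts and 32.6, 30.2, 38.0, 42.6 and 48.6 in the wild types (-0.20 ± 0.14), and was -0.10 without the library labelled wild type 24. Groups overlapped for each of these genes, and Tpi1 was -0.07 without wild type 19 and -0.13 without wild type 24. Proximal tubule S1 and S2 markers summed to 5551 to 6389 CPM in the knockout kidneys and 6248 to 7104 in the wild types. Of the 5 of these markers tested, 3 had a higher and 2 a lower value in the knockouts (median log2 difference 0.08). Their part in the members' values was not tested.

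The third comparison was the same in liver. None of 33 members passed here either, as Hkdc1 had too few reads, and over all 14591 genes 0% passed with edgeR; 2 members and 609 genes (4.17%) had an unadjusted p under 0.05. DESeq2 called 0 members in either tissue, beside 42 genes in liver and 15 in kidney. The members' median log2 difference was -0.01, with 16 values above 0 and 17 below. Intervals were wider than in kidney: 25 of 33 lay inside 1.5-fold and 28 inside 2-fold, and those of Slc2a1, Hk2, Pfkfb2, Pfkfb3 and Pfkfb4 reached past 2-fold.

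**Figure D4:**
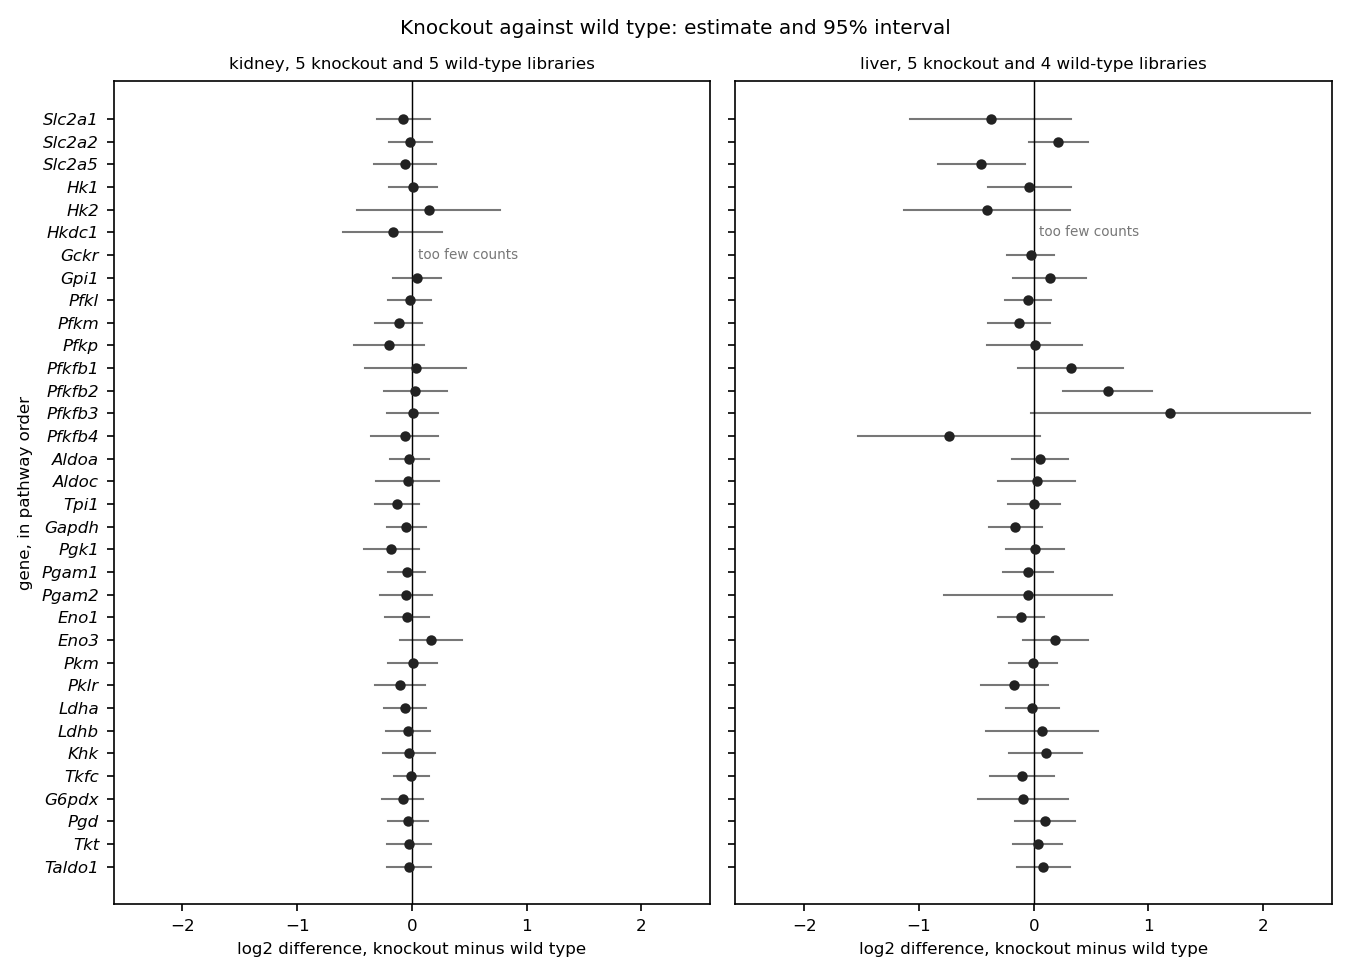
Log2 difference of knockout minus wild type with its 95% interval for each of the 34 genes, in kidney (5 and 5 libraries) and liver (5 and 4 libraries). Kidney estimates lie between -0.20 and 0.17, and the liver intervals of Slc2a1, Hk2, Pfkfb2, Pfkfb3 and Pfkfb4 reach past 2-fold.

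The members with the smallest p in liver were those of the fructose 2,6-bisphosphate step and of fructose uptake. Pfkfb2 had 20.6, 10.4, 15.3, 17.1 and 15.5 CPM in the knockout livers numbered 13, 14, 15, 16 and 18 and 10.0, 9.22, 11.5 and 9.96 in the wild types numbered 19, 20, 22 and 24. Knockout 14 lay within the wild types and the other 4 above them, so the groups overlapped. The log2 difference was 0.64 ± 0.18 (95% interval 0.26 to 1.03), with an unadjusted p of 0.00327 and an edgeR adjusted p of 0.725, and it was 0.64 without wild type 24 and 0.76 without knockout 14.
Pfkfb3 had 19.1, 8.43, 43.5, 49.9 and 36.1 CPM in the knockouts and 12.8, 8.39, 9.85 and 24.4 in the wild types (1.19 ± 0.54, unadjusted p = 0.0542, edgeR adjusted p = 1). Knockouts 15, 16 and 18 were high, knockout 14 was as low as the lowest wild type, and the difference was 1.61 without wild type 24. Slc2a5 had 5.16, 5.45, 4.50, 6.38 and 4.17 CPM in the knockouts and 8.43, 7.84, 6.47 and 5.66 in the wild types (-0.46 ± 0.18, unadjusted p = 0.022, edgeR adjusted p = 1). Knockout 16 reached into the wild types, and the difference was -0.55 without wild type 24.
Pfkfb1 had 55.0, 30.9, 46.0, 64.0 and 47.5 CPM in the knockouts and 29.5, 40.8, 51.3 and 35.2 in the wild types (0.32 ± 0.21), and Pfkfb4, at 0.517 to 1.77 CPM in the knockouts and 1.15 to 2.19 in the wild types, had -0.74 ± 0.37. The Pfkfb1 difference was 0.20 without knockout 16, 0.20 without wild type 19, 0.27 without wild type 24 and 0.15 without numbers 16 and 24, and that of Pfkfb4 was -0.88 without wild type 24. Knockout 14 was the lowest knockout liver in Pfkfb1, Pfkfb2 and Pfkfb3 and the highest in Pfkfb4. Exons of Pfkfb2 share 17.4% of their bases with the gene model Gm29427 on the same strand, which held 76 counts in all libraries.

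**Figure D5:**
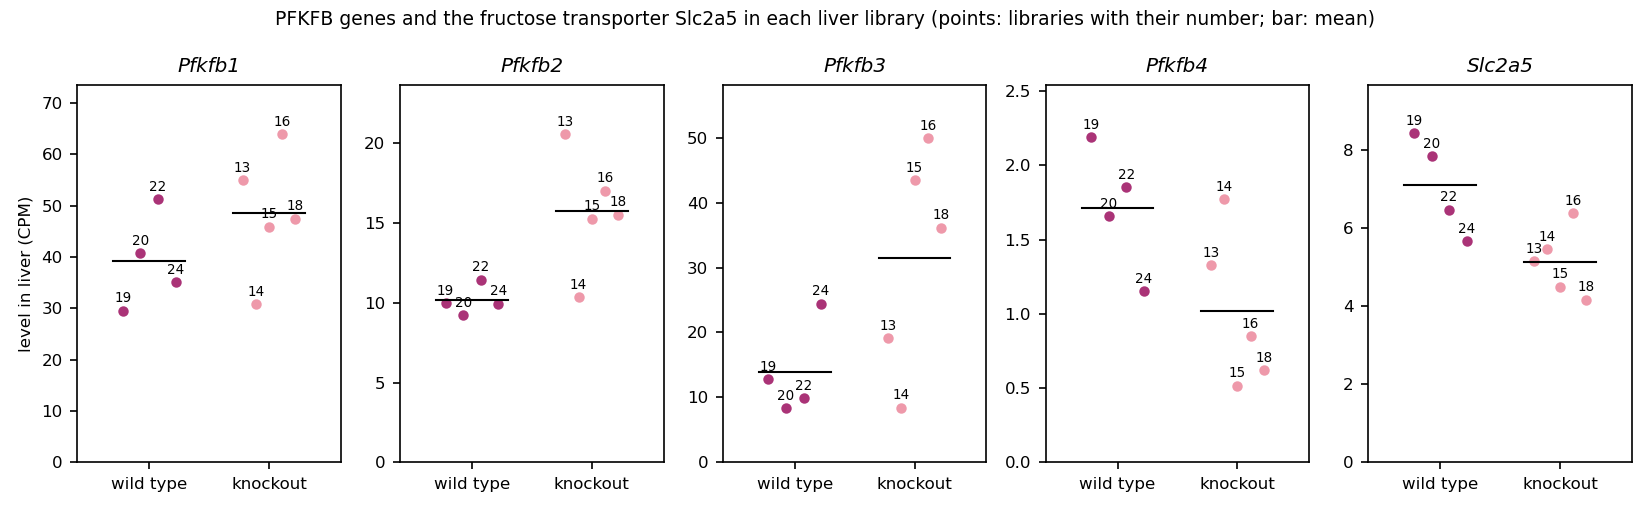
CPM of the 4 PFKFB genes and of Slc2a5 in each liver library, with library numbers beside the points and a bar at the group mean. For Pfkfb2 4 of 5 knockouts lie above the wild types and number 14 lies among them; Pfkfb3 runs from 8.43 to 49.9 CPM among knockouts.

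None of the abundant members passed in liver. Gapdh had a log2 difference of -0.16 ± 0.11, Ldha -0.01 ± 0.11, Khk 0.10 ± 0.15, Tpi1 0.00 ± 0.11, Aldoa 0.05 ± 0.11, Pklr -0.17 ± 0.14, Gckr -0.03 ± 0.09, Tkfc -0.10 ± 0.13 and G6pdx -0.09 ± 0.18. The muscle forms are given with muscle markers beside them: Eno3 had 0.19 ± 0.13 and Pgam2 -0.05 ± 0.34, while 9 skeletal muscle markers summed to 23.5, 2.00, 10.6, 7.68 and 13.7 CPM in the knockout livers and 3.92, 4.33, 1.90 and 4.98 in the wild types. Their part in these values was not tested.

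No member had knockout and wild-type libraries apart in either tissue, where 0.573% of all genes tested did in kidney and 1.64% in liver. Shares within families were compared by an exact two-sided permutation test of 1 share per family and tissue, 18 tests in all, with a smallest possible p of 0.00794. The share tested was that of the first-named member, Slc2a1 for the transporters. None of these passed after Benjamini-Hochberg adjustment, with or without the libraries numbered 24. Among 18 tests a share at the smallest possible p would not pass on its own, so this outcome excludes no difference. The smallest p of the 18 was that of the Eno1 share in liver, 95.4% in knockouts and 96.2% in wild types (exact permutation p = 0.0635, adjusted 0.786). In liver the untested shares of Slc2a5 and Slc2a2 lay apart between genotypes. Slc2a5 made up 2.194% to 2.896% in knockouts and 3.405% to 4.365% in wild types. Slc2a2 made up 90.21% to 94.75% in knockouts and 87.5% to 90.18% in wild types. Both are named after their values were seen, and the other untested shares overlapped. The Ldha share was 22.1% against 22.4% in kidney and 99.34% against 99.35% in liver, and the Pkm share 89.6% against 88.9% in kidney and 10.96% against 9.94% in liver.

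The difference of the knockout effects, liver minus kidney, was tested in 1 fit of all 19 libraries. None of the 34 members passed with edgeR or DESeq2, over all 18549 genes 0% did with edgeR, and 3 members had an unadjusted p under 0.05. The 95% intervals of 24 of the 34 lay inside a 1.5-fold difference either way and those of 28 inside 2-fold. The intervals of Hk2, Hkdc1, Gckr, Pfkfb2, Pfkfb3 and Pfkfb4 reached past 2-fold, so larger differences of effect are not excluded for these. In the edgeR fit Pfkfb2 had 0.62 ± 0.22, with an unadjusted p of 0.0108, Pfkfb3 1.19 ± 0.52, with 0.0363, and Hkdc1 1.19 ± 0.54, with 0.0389, and the adjusted p of each was 1. Without the libraries numbered 24 the differences were 0.59 for Pfkfb2, 1.601 for Pfkfb3 and 1.652 for Hkdc1, with adjusted p of at least 0.903 in edgeR. Over all genes 4.12% had an unadjusted p under 0.05. Pfkfb2 had 12.5, 9.84, 7.61, 9.90 and 8.73 CPM in the knockout kidneys and 8.27, 8.96, 10.5, 10.3 and 10.1 in the wild-type kidneys, which overlapped. Pfkfb3 had 17.6, 16.7, 17.9, 22.5 and 16.3 CPM in the knockout kidneys and 15.7, 17.5, 20.3, 19.2 and 18.6 in the wild types, likewise overlapping. Hkdc1 had 0.322, 0.355, 0.676, 0.580 and 0.240 CPM in the knockout livers, from 5 to 17 reads, and 1.51, 1.53, 2.19, 1.40 and 2.05 in the knockout kidneys, so its value rests on few reads.

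The wider pathway was read from 48 other genes, of which 44 were in the table. In kidney 0 of 42 tested and in liver 0 of 40 passed in knockout against wild type, with medians of -0.02 and -0.04 on the log2 scale. The smallest p in kidney were those of Mpc1, a subunit of the mitochondrial pyruvate carrier (-0.12), Bpgm, which makes 2,3-bisphosphoglycerate (-0.13), and Mlxipl, the glucose-sensing factor ChREBP (0.14), all with edgeR adjusted p = 0.999. In liver they were those of Slc16a7, the lactate and pyruvate carrier MCT2, at 0.33 ± 0.10 (adjusted p = 0.934 with edgeR), Eno4, a sperm enolase, at 1.06, and Pdk1, a kinase that inhibits pyruvate dehydrogenase, at 0.18. Slc16a7 had 55.6, 49.5, 52.0, 47.6 and 61.0 CPM in the knockout livers and 47.5, 43.9, 38.7 and 39.8 in the wild types. Its groups were just apart, as were those of Mpc1, which is named here after its values were seen; these are 2 of the 44 genes, where 1.64% of all genes tested in liver had groups apart.
Between tissues 37 of 43 tested (86.0%) passed in wild types, 21 higher and 16 lower in liver, beside 75.4% of all genes. In knockouts 38 of 43 (88.4%) passed, 23 higher and 15 lower, beside 73.8% of all genes. Slc5a2, the sodium and glucose cotransporter of the early proximal tubule, had 189 to 282 CPM in the wild-type kidneys, and 0 reads in 3 wild-type livers and 2 in the other, so no fold is given. Slc2a4, the insulin-responsive transporter, had a log2 difference of -6.33, with 2 to 13 reads in the wild-type livers, and Aldh1b1, a mitochondrial aldehyde dehydrogenase, one of 5.62. For the difference of knockout effects 0 of 43 passed, with the smallest p for Mpc1 (0.28), Slc16a7 (0.38) and Eno4 (1.04).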

How the data were processed

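Poly(A) RNA from whole kidney and liver was sequenced by the authors. The table the authors deposited gives whole-number counts for each gene in 19 libraries, not normalized. Per the submitters' processing notes, Trim Galore, STAR, featureCounts, DESeq2 and GRCm38 were used; versions and strand setting were not given in the sources used here. Groups came from genotype and tissue in the labels. Symbols, lengths and positions came from GENCODE mouse release 21; of the identifiers 26417 matched and 89 did not. Aldoa stands on 2 identifiers and the one with most counts was kept.

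Counts were tested with edgeR 4.0.16 in R 4.3.3 (quasi-likelihood F test, two-sided, robust, TMM, filterByExpr at 10 counts), on the libraries compared, with Benjamini-Hochberg adjustment over all genes tested and a threshold of 0.05. Standard errors were derived from the F statistic, and SD is over libraries. CPM was divided by the union of exons in kilobases for levels between genes, so alternative exons change it. Alternatives were DESeq2 1.42.0, library totals, DESeq2 size factors, other filters, 1 fit of all libraries, a mouse block, other lengths, and leaving out libraries; the fits were tested on simulated data.

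The members and lists were chosen with earlier results of these data known. All 34 members are named. Values per library are given for the 3 members of smallest p in each knockout comparison where fewer than 3 passed, the 8 largest tissue differences and families whose leading isoform differs between tissues. Pfkfb1 and Pfkfb4 were added by name to the liver knockout comparison. Of the other pathway genes, the 3 of smallest p in each knockout comparison and the 4 largest tissue differences are named, except 1 gene that is not reported here. Near-identical copies, sought at 95% identity over 200 bases, were found for 9 members; Gapdh had 78, which held 0.9% of its counts.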

Additional observations from a re-analysis of the deposited data

Results flagged for a closer look

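In each of the 4 groups, every member was checked for a single library lying far from the rest of its group, by the gap to the nearest library over the group's range. Chance alone marks about 1 in 20 groups, and 8 of the 136 groups were marked. In kidney these were Slc2a1 in knockout 14, at 47.4 CPM beside 30.7 to 35.1 in the other knockouts, Gpi1 in knockout 18, at 429 CPM beside 318 to 350, Pfkfb3 in knockout 16, at 22.5 CPM beside 16.3 to 17.9, and Taldo1 in wild type 19, at 252.2 CPM beside 205 to 218.
In liver they were Slc2a1 in wild type 22, at 17.8 CPM beside 10.6 to 11.2, Gckr in knockout 18, at 238 CPM beside 279 to 289, Gpi1 in knockout 18, at 384 CPM beside 222 to 266, and Eno3 in knockout 18, at 8.53 CPM beside 10.8 to 11.3. Library number 18 was marked for Gpi1 in both tissues.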

How the results depend on the processing

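No member passed in either tissue's knockout comparison or in their difference under any alternative run. The count over all genes did move. In kidney, where 1 gene passed, DESeq2 gave 15, no filter 4, 1 fit of all libraries 3, and leaving out mice 16 and 24, which stood apart in earlier results, 12; leaving out 1 mouse at a time gave 1 to 10, with 10 without mouse 16 and 7 without mouse 24. In liver, where 0 passed, these gave 42, 3, 21 and 11, and 0 to 7 with 1 mouse left out, with 7 without mouse 16 and 5 without mouse 24. For the difference of effects DESeq2 gave 11, leaving out both mice 4, and 1 mouse 0 to 3. Library totals gave 27 members with a lower value in knockout liver than kidney, against 16, and turned 8 tissue differences: in wild types Eno1 to -0.68, Eno3 to -0.57 and Khk to -0.35, and in knockouts Pfkfb2 to -0.18, Pgk1 to -0.55, Eno3 to -0.58, Khk to -0.27 and Tkt to -0.66. A further 32 values of single members lost their call, all tissue differences and all of Tkfc, Eno1, Eno3, Pgam1, Pgk1, Hk2 and Tkt; the cause was not tested. With the mouse number as a replicate block 26 members passed in wild types, 27 in knockouts and 0 for the difference of effects, and Eno3 in knockouts was at adjusted p = 0.0537. Kidney and liver of 1 number correlated in their deviations from the group means by 0.073 to 0.443 across genes, with a median of 0.244. The correlation was over 0.1 in 7 of 9 pairs, and 6 of 9 kidneys were closest to the liver of their number. The main fits took no pairing because the labels do not say that a number is an animal, and not because of these values. No tested isoform share changed its call, though none could pass on its own at the smallest possible p. Depth limits Gckr in kidney and Hkdc1 in liver, at 12 and 17 reads or fewer.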
